A study of Mus musculus with 31 samples.

Results

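Loci that carry the names of several genes were described in the hippocampus of db/db mice under intermittent fasting (IF), freely fed db/db mice and db/m mice. A locus is 1 row of the FPKM table, a stretch in which overlapping assembled transcripts were joined, and a shared locus is a row with at least 2 gene names and an FPKM above 1 in at least 10 of the 31 mice. FPKM is a fragment count scaled to transcript length in kilobases and to the size of the library. By this rule 1046 of the 27094 loci were shared, out of 1106 rows with several names. Of the others, 54 did not reach the FPKM minimum and 6 rows of mitochondrial DNA genes were left out, whereas the mitochondrial tRNA row TrnL2/TrnS2 stayed in by its name. Only 1 shared locus stood just inside the minimum, 9530059O14Rik/Mir138-1 with a mean of 1.0 FPKM and 10 mice above 1, and no locus with several names had exactly 9 mice above it. FPKM was above 1 in all 31 mice at 989 shared loci (94.6%).

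The 10 db/db-IF mice, the 10 db/db mice and the 11 db/m mice were males of the C57BLKS/J background. Both db/db groups carry the db allele of the leptin receptor gene Lepr on both chromosomes, which leads to obesity and diabetes, and the db/m mice carry 1 db allele and served as lean controls. In db/db-IF mice food was taken away for 24 h every other day over 28 days, and the db/db and db/m mice ate freely. The age is 3 months in the sample labels and 4 months at the start of IF in the methods. The study's figure legend also splits the sequenced mice differently between the db/db and db/db-IF groups. The groups here are those of the sample labels, and this difference could not be resolved. The comparisons ask how fasting changed the db/db hippocampus and how db/db mice differed from db/m mice. One library was made per mouse, with 91.8 to 139.1 M clean reads (median 117.5 M).

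Genes share a locus for several reasons. Neighbours on the same strand can be joined by transcription that reads through the end of the upstream gene, alternative first exons can be spliced to common last exons, as in the Ugt1a genes of glucuronidation, and microRNAs (miRNAs) and small nucleolar RNAs (snoRNAs) are cut out of the introns or exons of a longer host RNA. A mature miRNA binds mRNAs through its seed, the bases that pair first with a target, and snoRNAs guide the chemical modification of ribosomal RNA. The FPKM of a shared locus is a value for the joined transcripts, so that which of its genes moved cannot be told apart, and the libraries hold long RNA, so that mature miRNAs were not measured. In bulk tissue fewer cells of a type and less RNA per cell cannot be told apart either.

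Mature miRNAs of the host loci described below are shown first, to give the small RNAs that these loci encode, with the seed (bases 2 to 8) in capitals. They are RefSeq sequences on GRCm38.p6. The first lines share the seed GAGGUAG of the let-7 family, which stood in 3 shared loci, and the next pair shares the seed ACCCGUA.
let-7b-5p, Lncppara locus, chr15:85707325-85707346, + strand: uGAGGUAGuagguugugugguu
let-7c-5p, Lncppara locus, chr15:85706616-85706637, + strand: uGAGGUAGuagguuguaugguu
let-7c-5p, Mir99ahg locus, chr16:77599672-77599693, + strand: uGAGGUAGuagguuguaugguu
let-7e-5p, Spaca6 locus, chr17:17830366-17830387, + strand: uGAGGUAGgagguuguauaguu
miR-99a-5p, Mir99ahg locus, chr16:77598940-77598961, + strand: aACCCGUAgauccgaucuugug
miR-99b-5p, Spaca6 locus, chr17:17830194-17830215, + strand: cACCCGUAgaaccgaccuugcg
miR-125a-5p, Spaca6 locus, chr17:17830817-17830840, + strand: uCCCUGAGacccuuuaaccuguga
miR-9-5p, Mir9-3hg locus, chr7:79505279-79505301, + strand: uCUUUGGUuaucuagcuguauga
miR-134-5p, Mirg cluster, chr12:109734145-109734166, + strand: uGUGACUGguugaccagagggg
miR-370-3p, Rian locus, chr12:109618305-109618326, + strand: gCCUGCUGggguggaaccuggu
miR-711, Col7a1 locus, chr9:108969970-108969991, + strand: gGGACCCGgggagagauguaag

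Most shared loci joined a pair of neighbours. Of the 1046 loci, 876 (83.7%) had 2 names, 136 had 3 and 23 had 4, and the longest row was the Pcdha/Pcdhg cluster of clustered protocadherins, cell adhesion molecules of neurons, with 39 names. The loci held 2362 names, 2276 of them different, and 2241 (94.9%) were found in the RefSeq annotation of GRCm38.p6. Protein-coding genes made up 1602 of the names, miRNAs 287, long noncoding RNAs (lncRNAs) 217 and snoRNAs 44. At least 2 protein-coding genes were joined at 514 loci (49.1%), a miRNA stood in 257 loci and a snoRNA in 29. Names of at least 2 genes that are not predicted ones (Gm, Rik or LOC) stood in 726 loci (69.4%).

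The arrangement of the genes is given as a description, because rows made by joining overlapping transcripts hold mostly neighbours by construction. Where a pair of longer genes could be given a strand, 557 of 575 pairs (96.9%) lay on the same strand and 18 on opposite strands. The genes stood in tandem at 531 loci and 1 gene lay inside another at 325. In 473 tandem pairs with a measurable gap the median gap was 2315 bases, 72 pairs overlapped, 240 lay 0 to 5000 bases apart and 161 lay farther apart. The genes of 19 loci lay over 100000 bases apart, such as Gm41414 and Rbfox1 with 432537 bases between them. A name of a shared locus also stood on another locus in 245 cases (23.4%).

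**Figure D1:**
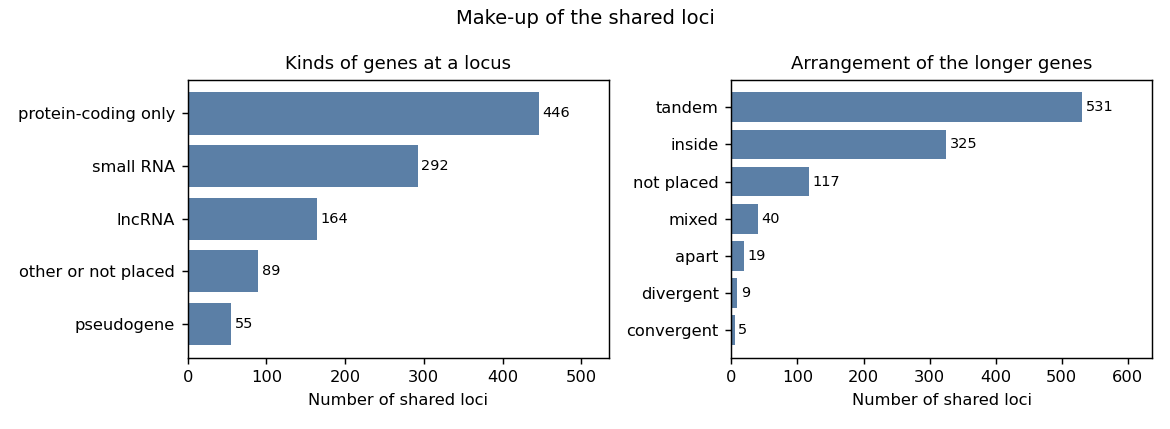
Number of shared loci by the kinds of genes they hold (left) and by the arrangement of their longer genes (right), with the number at the end of each bar. Loci of protein-coding genes alone (446) and tandem neighbours (531) are the longest bars.

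Shared loci had higher values than loci with 1 name. Their mean FPKM over the mice had a median of 29.4 (quartiles 9.74 and 84.6), against 10.7 (3.35 and 37.1) for the 15424 tested loci with 1 name, and 226 shared loci (21.6%) had a mean above 100 FPKM, against 1706 single-name loci (11.1%). Shared loci held 8.8% to 9.94% of the summed FPKM of a mouse. The spread between mice of a group on the log2(FPKM + 1) scale was close in both sets, with a median SD of 0.168 at shared loci and 0.179 at single-name loci. These are descriptions of the table with no test.

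Among the shared loci with the highest mean FPKM were 1700092M07Rik/Mir6992/Stx5a/Wdr74, 1700086P04Rik/Hpca, Meg3/Mir1906-1/Mir770, Mir7651/Zmiz2, Anapc5/Gm33044, Flrt1/Stip1 and Kctd13/Sez6l2. The locus with Stx5a, a syntaxin of Golgi transport, averaged 9890.7 ± 1223.1 FPKM in db/db-IF mice, 8838.2 ± 968.5 in db/db mice and 9214.5 ± 880.4 in db/m mice (SD, n = 10, 10 and 11). The locus with Hpca, the neuronal calcium sensor hippocalcin, averaged 6064.7 ± 1939.8, 6236.8 ± 1915.4 and 6043.3 ± 2159.7 FPKM in the same groups. The groups overlapped at both loci and neither passed the test in any comparison. Of the 7 loci listed, Anapc5/Gm33044 alone passed it, with 2401.3 ± 162.3 FPKM in db/db-IF mice, 2077.8 ± 230.6 in db/db mice and 2347.4 ± 175.8 in db/m mice. Anapc5 is a subunit of the anaphase-promoting complex. The log2 fold change was 0.21 ± 0.06 (SE) for db/db-IF against db/db (limma, adjusted p = 0.0022) and -0.18 ± 0.05 for db/db against db/m (adjusted p = 0.045). With the slope on transcript length described below as a covariate, these were 0.26 (adjusted p = 0.12), which ends the call, and -0.18 (adjusted p = 0.038). Without the covariate the second of these calls was lost in 15 of the fits that left out 1 mouse (log2 fold change -0.15 without db/db mouse 10, adjusted p = 0.094).

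Fasting went with changes at many shared loci. Compared with the other mice together, 232 shared loci (22.2%) had higher values in db/db-IF mice, where 26.8% of all 17139 tested loci were, and 284 (27.2%) were lower, where 30.9% of all loci were. Compared with db/db mice alone, 213 shared loci (20.4%) were higher and 238 (22.8%) lower in db/db-IF mice, against 23.7% and 27.4% of all loci. The shares of shared and of all loci were not tested against each other. With quantile normalization the split was 302 higher and 228 lower against the other mice, where 29.7% and 27.0% of all loci were called, and 277 higher and 195 lower against db/db mice, where 26.7% and 24.1% were. The median log2 fold change for db/db-IF against db/db was -0.02 at shared loci and -0.024 at all loci, and the median size was 0.168 against 0.202. The threshold was a Benjamini-Hochberg adjusted p under 0.05 over all tested loci, in limma fits of log2(FPKM + 1), so a fold change understates that of a low locus.

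A dependence on transcript length moved with fasting. The slope of a mouse's log2 values on log2 transcript length, computed over 12218 single-name loci, was -0.2347 to -0.0449 (median -0.0738) in db/db-IF mice, -0.0387 to 0.0702 (0.0477) in db/db mice and 0.0006 to 0.0798 (0.0512) in db/m mice. Every db/db-IF mouse was below every other mouse, so fasting and this slope cannot be told apart in these mice. With the slope as a covariate, 28 shared loci (2.68%) were higher and 2 (0.191%) lower in db/db-IF mice than in db/db mice, where 1.42% and 0.502% of all loci were, and 17 of these 30 were also called in the same direction without it. Against the other mice together the counts were 18 (1.72%) and 0, where 0.852% and 0.181% of all loci were called. Without db/db-IF mouse 7, which had the lowest slope, 207 shared loci were higher and 221 lower than in db/db mice in the fit with no covariate. Of all 17139 loci 3812 were higher and 4391 lower in that fit.

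**Figure D2:**
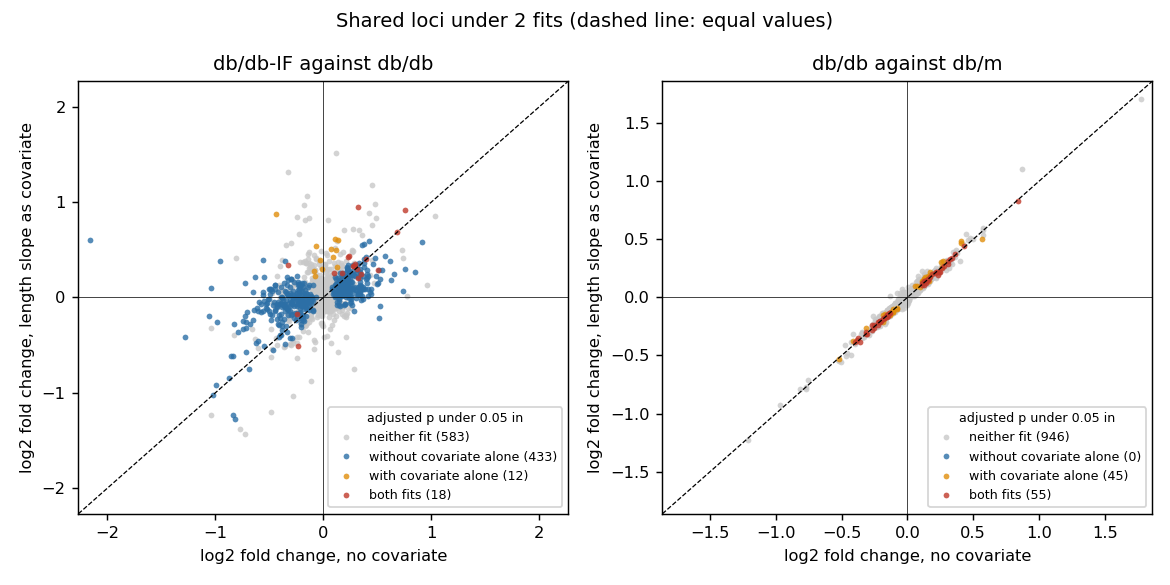
Log2 fold change of each of the 1046 shared loci without (horizontal) and with (vertical) the length slope as a covariate, for db/db-IF against db/db (left) and db/db against db/m (right). Colours mark the fits in which the adjusted p was under 0.05. For fasting most called loci fall off the dashed line of equal values and 18 are called in both fits, 17 of them in 1 direction, whereas for db/db against db/m the loci lie along the line and all 55 called loci keep their call.

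The 17 loci called for fasting in both fits are described next, with the log2 fold change of the covariate fit beside the other. Mice were left out only in fits with no covariate. No call of the covariate fit was therefore checked without db/db-IF mouse 7, the mouse with the lowest slope. Of these, 11 fall outside the rule for named loci and were chosen with their values already seen. Acad10/Acad12 (chr5:121598277-121660603, a tandem pair 2087 bases apart) holds a pair of genes of the acyl-CoA dehydrogenase family, enzymes of mitochondrial fatty acid oxidation. The locus ranged from 12.2 to 23.7 FPKM in db/db-IF mice (median 14.8), from 7.8 to 9.89 FPKM in db/db mice (median 8.95) and from 7.59 to 11.4 FPKM in db/m mice (median 8.89). All 10 db/db-IF mice lay above all other mice. The log2 fold change for db/db-IF against db/db was 0.68 ± 0.08 (SE, adjusted p = 3.3e-07), and 0.68 in the covariate fit (adjusted p = 0.012). The locus did not pass the test for db/db against db/m (-0.02 ± 0.08, adjusted p = 0.93).

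The start regions of Acad10 and Acad12 are shown because the pair has 1 value and these regions are alike. Most of each window lies before the start, so the windows do not show whether reads of the genes can be told apart. The transcript sequences were not compared. Each window runs from 250 bases before to 50 bases after the start given by RefSeq (GRCm38.p6), and capitals mark runs of at least 12 bases found in both windows, which cover 164 of the 300 bases of the Acad10 window and 160 of those of the Acad12 window. Runs that overlap were marked as 1 stretch, so a stretch can be longer than any run found in both windows. The longest stretch of the Acad12 window, of 35 bases, is such a case.
Acad10, chr5:121660461-121660760, - strand: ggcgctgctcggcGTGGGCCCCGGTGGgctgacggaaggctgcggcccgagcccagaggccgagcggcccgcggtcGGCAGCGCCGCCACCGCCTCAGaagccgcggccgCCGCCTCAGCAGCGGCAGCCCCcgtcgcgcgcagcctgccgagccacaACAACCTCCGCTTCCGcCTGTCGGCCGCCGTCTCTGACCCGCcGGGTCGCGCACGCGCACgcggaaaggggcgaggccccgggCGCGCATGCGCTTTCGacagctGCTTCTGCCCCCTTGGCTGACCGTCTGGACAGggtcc
Acad12, chr5:121618889-121619188, - strand: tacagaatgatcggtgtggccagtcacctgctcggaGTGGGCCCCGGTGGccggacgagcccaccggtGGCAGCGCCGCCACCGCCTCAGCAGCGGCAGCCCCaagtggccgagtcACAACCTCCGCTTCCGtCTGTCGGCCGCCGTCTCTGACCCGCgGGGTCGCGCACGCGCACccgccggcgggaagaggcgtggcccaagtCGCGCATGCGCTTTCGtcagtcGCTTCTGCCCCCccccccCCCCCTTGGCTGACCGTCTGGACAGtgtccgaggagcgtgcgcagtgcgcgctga

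Col7a1/Mir711 (chr9:108953586-108984875) holds the collagen of anchoring fibrils with a miRNA inside it. It ranged from 5.25 to 10.4 FPKM in db/db-IF mice (median 6.57), from 2.63 to 5.27 in db/db mice (median 3.93) and from 4.03 to 6.1 in db/m mice (median 5.37). Of the 10 db/db-IF mice 9 lay above all db/db mice, and 6 of 10 db/db mice lay below all db/m mice. Its log2 fold change was 0.75 ± 0.11 (SE) for db/db-IF against db/db (adjusted p = 2.1e-06, and 0.91 with adjusted p = 0.0087 in the covariate fit). For db/db against db/m, a comparison that shares the db/db mice, it was -0.38 ± 0.1 (adjusted p = 0.024). The db/db against db/m call was lost without db/db mouse 5 (-0.34, adjusted p = 0.052) or mouse 10 (-0.34, adjusted p = 0.054).

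Hosts of snoRNAs were among these loci. Snhg8/Snora24 (chr3:123507552-123508336), a noncoding host with the snoRNA Snora24 inside it, ranged from 10.8 to 14.4 FPKM in db/db-IF mice (median 11.5), from 6.8 to 10.0 in db/db mice (median 7.94) and from 6.19 to 7.98 in db/m mice (median 7.2). All db/db-IF mice lay above all other mice. Its log2 fold change for db/db-IF against db/db was 0.5 ± 0.06 (adjusted p = 2e-07), and 0.28 in the covariate fit (adjusted p = 0.046). Snhg12 with Snora44, Snora61 and Snord99 (chr4:132308678-132311024) ranged from 32.2 to 39.1 FPKM in db/db-IF mice (median 36.5), from 26.8 to 31.8 in db/db mice (median 29.0) and from 25.1 to 35.3 in db/m mice (median 28.9). All db/db-IF mice lay above all db/db mice, with a log2 fold change of 0.31 ± 0.05 (adjusted p = 5.5e-06) and 0.3 in the covariate fit (adjusted p = 0.04). Of the 26 shared loci with a snoRNA name, 11 were higher and 6 lower in db/db-IF mice than in the other mice, beside 26.8% and 30.9% of all loci, with a median log2 fold change of 0.062 against -0.031 over all loci. In the covariate fit the 2 loci named here were called, both higher. Rack1/Snord96a, whose protein is a scaffold of the small ribosomal subunit, stood on a pair of shared loci with log2 fold changes of 0.32 and 0.19 when db/db-IF mice were set against the others (adjusted p = 3.5e-06 and 0.00014), and both calls were lost in the covariate fit (0.14 and 0.07, adjusted p = 0.47 and 0.66).

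Among the 17 loci, Mir7036/Srrt holds the gene of a partner of the nuclear cap-binding complex and averaged 202.2 ± 16 FPKM in db/db-IF mice, 167.2 ± 12 in db/db mice and 171.6 ± 5.6 in db/m mice (SD). Mir6970/Skiv2l, with the helicase of the Ski complex of RNA decay, averaged 353.7 ± 15, 313.5 ± 19 and 319.5 ± 17 FPKM in the same groups. At both loci 7 of 10 db/db-IF mice lay above all db/db mice, and the log2 fold changes were 0.27 ± 0.04 and 0.17 ± 0.04 (SE, adjusted p = 5.8e-06 and 0.00022), with 0.33 and 0.26 in the covariate fit (adjusted p = 0.013 and 0.023). Ercc2/Mir343, with the helicase of the transcription and repair factor TFIIH, averaged 37 ± 5.2 FPKM in db/db-IF mice, 27.7 ± 2.5 in db/db mice and 32.2 ± 1.8 in db/m mice. LOC108167857/Sap30l, with a protein of the Sin3 corepressor complex, averaged 11.4 ± 0.48 FPKM in db/db-IF mice, 8.92 ± 0.61 in db/db mice and 8.01 ± 0.45 in db/m mice, and all 10 db/db-IF mice lay above all other mice. Their log2 fold changes for db/db-IF against db/db were 0.4 ± 0.06 and 0.32 ± 0.04 (adjusted p = 5.3e-06 and 2.5e-07), with 0.41 and 0.2 in the covariate fit (adjusted p = 0.035 and 0.04).

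Mir7075/Terf2 (chr8:107069400-107096548), with a telomere-binding protein of shelterin, was 1 of the 2 loci that were lower with and without the covariate. It ranged from 31.1 to 36.3 FPKM in db/db-IF mice (median 34.4), from 37.5 to 43.0 in db/db mice (median 41.1) and from 35.5 to 39.1 in db/m mice (median 37.5). The db/db-IF and db/db mice did not overlap. This locus had a log2 fold change of -0.24 ± 0.03 for db/db-IF against db/db (adjusted p = 3.6e-07, and -0.17 with adjusted p = 0.041 in the covariate fit) and 0.11 ± 0.03 for db/db against db/m (adjusted p = 0.016). The other was Sco2/Tymp, with a copper carrier of cytochrome oxidase and thymidine phosphorylase, at 124.6 ± 28 FPKM in db/db-IF mice, 144.2 ± 12 in db/db mice and 137 ± 12 in db/m mice. Its log2 fold change for db/db-IF against db/db was -0.24 ± 0.09 (adjusted p = 0.027), and -0.51 in the covariate fit (adjusted p = 0.042). Without the covariate the call was lost without db/db-IF mouse 1 (-0.19, adjusted p = 0.062), mouse 4 (-0.2, adjusted p = 0.057) or mouse 11 (-0.2, adjusted p = 0.058).

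Among the remaining loci of the 17, Dhps/Fbxw9/Mir7070 holds deoxyhypusine synthase, the enzyme that begins the hypusine modification of the translation factor eIF5A. It ranged from 40.4 to 48.6 FPKM in db/db-IF mice (median 44.3), from 31.3 to 38.1 in db/db mice (median 34.4) and from 34.5 to 40.5 in db/m mice (median 36.9). All db/db-IF mice lay above all db/db mice, and the log2 fold change was 0.34 ± 0.04 (adjusted p = 1.8e-07, and 0.25 with adjusted p = 0.027 in the covariate fit). Irf9/Rnf31, with a factor of the interferon response and a ligase that builds linear ubiquitin chains, averaged 20.9 ± 2 FPKM in db/db-IF mice, 16.9 ± 1.2 in db/db mice and 18.5 ± 0.95 in db/m mice, with a log2 fold change of 0.28 ± 0.05 for db/db-IF against db/db (adjusted p = 1.3e-05, and 0.33 with adjusted p = 0.025 in the covariate fit). Focad/Mir491, Gm42363/Pank4, 2610507B11Rik/Sdf2, Mir8107/Nbeal2/Nradd and LOC328448/Olfm4 had log2 fold changes of 0.24, 0.29, 0.1, 0.23 and 0.32 in the same comparison. In the covariate fit these were 0.44, 0.35, 0.25, 0.42 and 0.95 (adjusted p = 0.018, 0.027, 0.0073, 0.027 and 0.0054). The call of LOC328448/Olfm4 without the covariate was lost in 10 of the fits that left out 1 mouse (0.25 without db/db-IF mouse 1, adjusted p = 0.087).

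**Figure D3:**
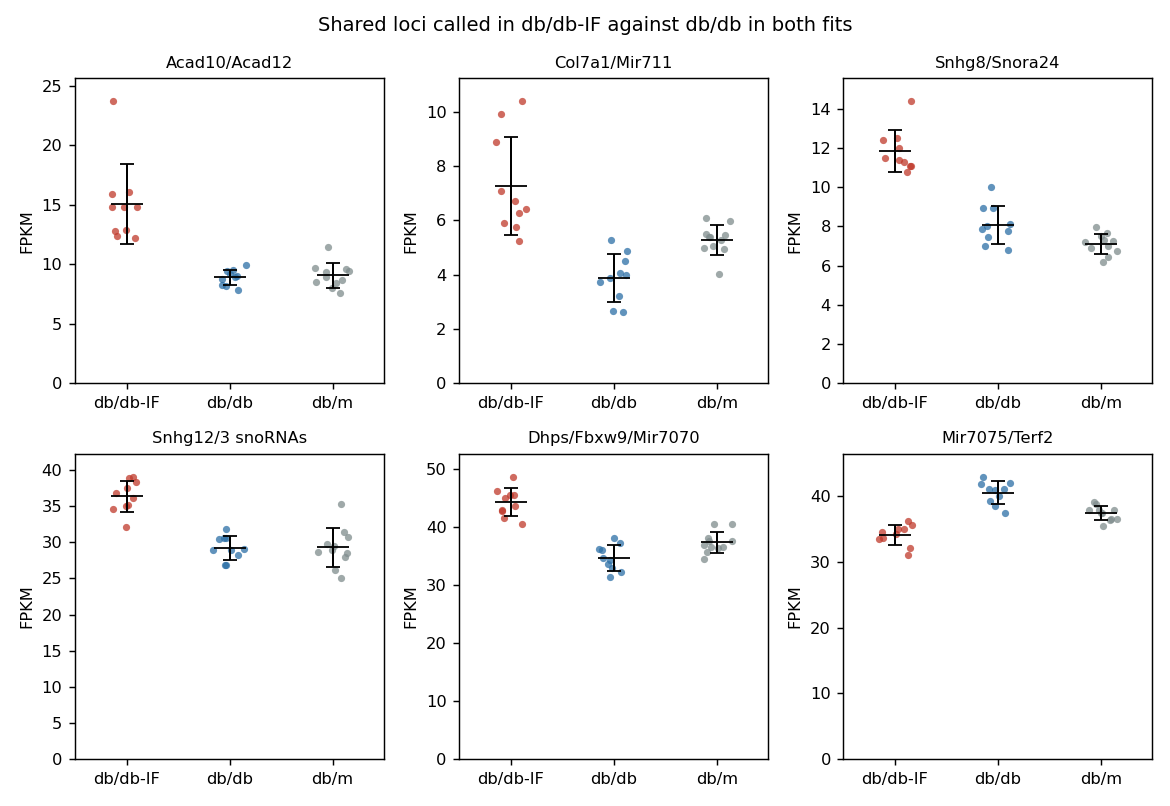
FPKM of 6 shared loci in each mouse of the db/db-IF, db/db and db/m groups (points), with the mean (long bar) and SD (whiskers). At Acad10/Acad12 and Snhg8/Snora24 all db/db-IF mice lie above all other mice, and at Mir7075/Terf2 all lie below the db/db mice.

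Subunits of oxidative phosphorylation stood in shared loci that were mostly higher in db/db-IF mice. Of 8 such loci 7 were higher than in the other mice and none lower, with a median log2 fold change of 0.369, beside 26.8% of all loci called higher and a median of -0.031. Ndufs7/n-TNgtt7, with a core subunit of complex I, ranged from 512.8 to 759.2 FPKM in db/db-IF mice (median 591.6), from 361.1 to 519.7 in db/db mice (median 403.6) and from 359.0 to 514.6 in db/m mice (median 378.6). Gm35037/Ndufa3, with another complex I subunit, ranged from 33.5 to 53.0 FPKM in db/db-IF mice (median 36.9), from 24.5 to 32.9 in db/db mice (median 28.1) and from 23.2 to 30.6 in db/m mice (median 26.4). At Ndufs7/n-TNgtt7 8 of 10 db/db-IF mice lay above all other mice and at Gm35037/Ndufa3 all did, with log2 fold changes against the other mice of 0.53 ± 0.06 and 0.47 ± 0.05 (adjusted p = 3.8e-08 and 6e-08). The others were Cox7a2/Gm39378 (0.42), Gm9442/Ndufc1 (0.38), Atp5j/LOC108168296 (0.36), Atp5g2/Mir688 (0.23) and Ndufa12/Nr2c1 (0.23), while Pcp4l1/Sdhc had 0.08 (adjusted p = 0.089). With the length slope as a covariate none of the 8 was called, and the log2 fold changes were 0.17 at Ndufs7/n-TNgtt7 and 0.06 at Gm35037/Ndufa3 (adjusted p = 0.34 and 0.63).

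Against the other mice 3 of 4 proteasome loci were higher with fasting, 1 of these 3 by only 0.07 on the log2 scale, beside 26.8% of all loci called higher. Ctrl/Psmb10, with a catalytic subunit of the immunoproteasome, averaged 22.7 ± 2.5 FPKM in db/db-IF mice, 16.4 ± 2.1 in db/db mice and 15.6 ± 1.3 in db/m mice. Mir686/Psmb5, with a catalytic subunit of the standard proteasome, averaged 45.3 ± 6.2, 37.5 ± 3.5 and 34.2 ± 2.1 FPKM in the same groups. Their log2 fold changes against the other mice were 0.48 ± 0.06 and 0.33 ± 0.05 (adjusted p = 5.9e-08 and 9.7e-06), and in the covariate fit 0.1 and -0.04 (adjusted p = 0.51 and 0.82). 9930111J21Rik1/Psme2b had 0.07 (adjusted p = 0.044, and -0.01 with adjusted p = 0.98 in the covariate fit). Gpr75/Psme4, with a proteasome activator, also had 0.07 and did not pass (adjusted p = 0.5), but was called in the covariate fit (0.52, adjusted p = 0.035).

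The other lists had calls in both directions or few calls, beside 26.8% of all loci higher and 30.9% lower in this comparison. Of 45 loci with a zinc finger gene 7 were higher and 13 lower in db/db-IF mice than in the other mice, of 30 with a solute carrier 8 and 8, of 31 with a gene of the ubiquitin system 5 and 8, of 20 with a Tmem name 2 and 5, of 14 with a small GTPase or its regulators 4 and 5, and of 13 with a channel or receptor 2 and 3. Of 4 loci with a splicing gene and 4 with an aminoacyl-tRNA synthetase, 2 each were lower. These lists go by the pattern of the name, whereas the 257 loci with a miRNA and the 29 with a snoRNA above were counted by the RefSeq gene type. Of 252 loci with a miRNA name 56 were higher and 71 lower. Of 377 with a predicted name 69 were higher and 117 lower, with a median log2 fold change of -0.056.

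Of the loci that were lower in db/db-IF mice, Mir7025/Pdgfra, with the receptor that marks oligodendrocyte precursors, ranged from 13.9 to 25.3 FPKM in db/db-IF mice (median 20.1), from 27.1 to 37.7 in db/db mice (median 33.7) and from 27.9 to 42.3 in db/m mice (median 33.7). Gad2/Mir3967, with an enzyme of GABA synthesis, ranged from 96.2 to 182.5 FPKM in db/db-IF mice (median 141.2), from 170.5 to 257.8 in db/db mice (median 211.9) and from 174.2 to 282.5 in db/m mice (median 203.1). At Mir7025/Pdgfra all 10 db/db-IF mice and at Gad2/Mir3967 9 of 10 lay below all other mice. The log2 fold changes for db/db-IF against db/db were -0.72 ± 0.09 and -0.68 ± 0.1 (adjusted p = 4.3e-07 and 6.6e-06). The loci 1700008O03Rik/Shank1, with a scaffold of the postsynaptic density, and Gabra5/Gm42385, with a GABA receptor subunit, had -0.79 ± 0.16 and -0.99 ± 0.22 (adjusted p = 0.00025 and 0.00046). In the covariate fit these 4 loci had -0.32, -0.28, -0.36 and -0.92 (adjusted p = 0.13, 0.34, 0.5 and 0.18).

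Also lower in db/db-IF mice, Mir7033/Pom121, with a nuclear pore protein, averaged 413.9 ± 83 FPKM in db/db-IF mice, 624.3 ± 52 in db/db mice and 607.7 ± 59 in db/m mice. LOC108169182/Setd5, with a chromatin protein, averaged 301.6 ± 44, 457 ± 55 and 430.6 ± 30 FPKM in the same groups, and Mir7008/Prkci, with an atypical protein kinase C, averaged 5.15 ± 0.87, 8.11 ± 0.76 and 7.7 ± 0.52 FPKM. Between 8 and 10 of the 10 db/db-IF mice lay below all db/db mice at these loci. The log2 fold changes against db/db were -0.61 ± 0.09, -0.6 ± 0.08 and -0.58 ± 0.07 (adjusted p = 3.4e-06, 6.1e-07 and 4.4e-07), and in the covariate fit -0.11, -0.14 and -0.15 (adjusted p = 0.57, 0.28 and 0.2). Zfp101/Zfp81, a tandem pair of zinc finger genes, had -1.06 ± 0.21 (adjusted p = 0.00012), and Anapc1/Gm39929, with the largest subunit of the anaphase-promoting complex, had -1.28 ± 0.27 (adjusted p = 0.00033), with covariate values of -0.19 and -0.42 (adjusted p = 0.78 and 0.66).

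Markers of cell types gave the setting of these values. The summed FPKM of 5 markers of excitatory neurons was 3911.4 to 5462.5 in db/db-IF mice, 5573.4 to 7603.8 in db/db mice and 5350.5 to 7241.1 in db/m mice, with 3 of 5 lower in db/db-IF mice than in db/db mice. That of 5 endothelial markers was 69.7 to 104.8, 92.6 to 121.5 and 89 to 126.6, with 4 of 5 lower. The 5 interneuron markers, which include Gad2, summed to 4333.6 to 6848.4, 3400 to 5239.4 and 3648.9 to 5846.3 FPKM, with 2 higher and 2 lower. Against db/db mice 1 of 5 astrocyte markers was higher and 2 lower, and 1 of 5 oligodendrocyte markers was higher and none lower. Of 4 microglia markers tested, none was called against db/db mice, while 3 were lower in db/db-IF mice than in the other mice together. The counts against db/db mice stand beside 23.7% of all loci higher and 27.4% lower in that comparison. Against the other mice together 30.9% of all loci were lower. Choroid plexus markers ranged from 4212.7 to 31679.4 FPKM in db/db-IF mice, from 763.9 to 26206.5 in db/db mice and from 662.2 to 32989.3 in db/m mice, so the groups overlapped over much of their range. Their medians were 20640.4, 8743.0 and 18574.0 FPKM in the same groups. Of 4 choroid plexus markers tested, 1 was higher in db/db-IF than in db/db mice. The part of cell make-up in the changes of shared loci was not tested.

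Globin loci, which mark red blood cells, were higher in db/db-IF mice. Hbb-bs/Hbb-bt (chr7:103812524-103827928), the adult beta globins, ranged from 36.9 to 151.9 FPKM in db/db-IF mice (median 58.0), from 17.7 to 61.4 in db/db mice (median 37.8) and from 18.1 to 48.0 in db/m mice (median 30.0). Hba-a1/Hba-a2/Hbq1b (chr11:32283672-32297310), with the near-identical alpha globins, ranged from 70.4 to 272.1 FPKM in db/db-IF mice (median 104.9), from 53.6 to 124.1 in db/db mice (median 76.8) and from 38.8 to 80.9 in db/m mice (median 56.8). The groups overlapped at both, and 4 of 10 db/db-IF mice lay above all other mice. For db/db-IF against db/db the log2 fold changes were 0.74 ± 0.22 and 0.51 ± 0.19 (adjusted p = 0.0053 and 0.022), with 0.07 and -0.21 in the covariate fit (adjusted p = 0.95 and 0.74). Without db/db-IF mouse 7 the alpha globin value was 0.38 (adjusted p = 0.053). The 3 blood markers were Alas2 and, from these same loci, Hba-a1 and Hbb-bs, so their sum largely repeats the globin values. All 3 were higher in db/db-IF mice than in db/db mice, where 23.7% of all loci were. Their sum was 110.8 to 437.3 FPKM in db/db-IF mice, 73.1 to 193.5 in db/db mice and 62.2 to 132.5 in db/m mice. The part of blood left in the tissue was not tested.

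The windows of the beta globin genes are shown because both genes of this locus are known to be driven from promoters with a CCAAT box and a CACCC box, and capitals mark these letters on the printed strand. On that strand CCAAT stood in 21.1% and CACCC in 33.5% of the 32851 RefSeq windows of this length, and on either strand in 37.4% and 57.5%, so a match is a description of the letters. The windows run from 250 bases before to 50 bases after the start (GRCm38.p6).
Hbb-bs, chr7:103827879-103828178, - strand: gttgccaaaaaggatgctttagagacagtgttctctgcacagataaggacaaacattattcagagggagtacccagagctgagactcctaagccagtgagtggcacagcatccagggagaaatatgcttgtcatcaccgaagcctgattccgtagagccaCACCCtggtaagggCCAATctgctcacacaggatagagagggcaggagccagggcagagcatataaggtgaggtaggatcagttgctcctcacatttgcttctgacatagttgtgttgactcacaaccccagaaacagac
Hbb-bt, chr7:103813874-103814173, - strand: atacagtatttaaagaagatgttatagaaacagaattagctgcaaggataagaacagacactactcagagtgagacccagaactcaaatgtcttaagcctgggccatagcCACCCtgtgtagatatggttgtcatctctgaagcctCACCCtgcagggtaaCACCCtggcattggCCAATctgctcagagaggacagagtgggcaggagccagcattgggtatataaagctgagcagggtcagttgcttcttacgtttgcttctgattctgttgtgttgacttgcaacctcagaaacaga

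The imprinted noncoding RNAs of chromosome 12, which are expressed from the maternal copy and carry many miRNAs and snoRNAs, did not share 1 direction. The RefSeq genes of Rian/Mir370 span chr12:109603945-109661716. These names stood on a pair of loci whose own positions are not known here. The one with the higher values ranged from 110.0 to 217.2 FPKM in db/db-IF mice (median 168.4), from 198.2 to 350.4 in db/db mice (median 283.8) and from 255.0 to 347.7 in db/m mice (median 287.3), and 7 of 10 db/db-IF mice lay below all other mice. Its log2 fold change for db/db-IF against db/db was -0.74 ± 0.1 (adjusted p = 1.8e-06), and that of the lower locus was -0.71 ± 0.1 (adjusted p = 1.3e-06). The Mirg cluster (chr12:109733771-109749458), which encodes miR-134, a miRNA known from rat hippocampal neurons to limit dendritic spine size, ranged from 14.9 to 20.8 FPKM in db/db-IF mice (median 17.5), from 10.1 to 15.2 in db/db mice (median 13.0) and from 11.9 to 17.8 in db/m mice (median 14.4). It was higher in db/db-IF than in db/db mice by 0.4 ± 0.08 on the log2 scale (adjusted p = 7.3e-05), with 9 of 10 mice above all db/db mice. Meg3/Mir1906-1/Mir770 ranged from 2802.5 to 6888.1 FPKM in db/db-IF mice, from 1231.8 to 6637.1 in db/db mice and from 1765.8 to 7060.3 in db/m mice, and did not pass the test (0.45 ± 0.32, adjusted p = 0.25). In the covariate fit none of these loci was called, with -0.25 and -0.26 at the Rian loci and 0.24 at the Mirg cluster (adjusted p = 0.32, 0.26 and 0.29).

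**Figure D4:**
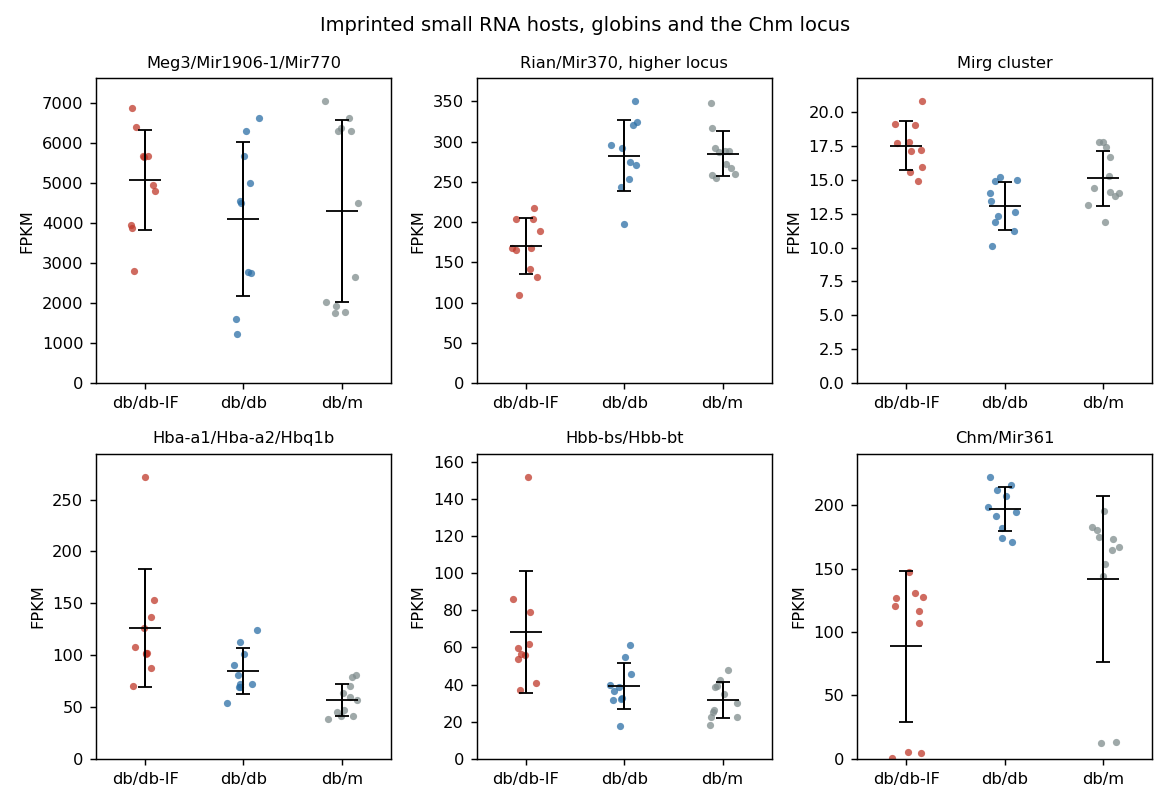
FPKM of imprinted small RNA hosts, globin loci and Chm/Mir361 in each mouse of the db/db-IF, db/db and db/m groups (points), with the mean (long bar) and SD (whiskers). The Rian locus is lower and the Mirg cluster higher in most db/db-IF mice than in db/db mice, Meg3 overlaps over all groups, and Chm/Mir361 has 3 db/db-IF mice and 2 db/m mice far below the rest.

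Some shared loci were split within a group, with at least 2 mice on either side of a step over 2 in log2 value. This was so for 12 shared loci (1.15%), against 306 single-name loci (1.98%). Chm/Mir361, with the Rab escort protein, had the lowest fold change of all shared loci, -2.16 ± 0.72 for db/db-IF against db/db (adjusted p = 0.014). It ranged from 0.638 to 147.1 FPKM in db/db-IF mice (median 118.5), from 171.3 to 222.5 in db/db mice (median 196.7) and from 12.2 to 195.5 in db/m mice (median 167.3), with 3 db/db-IF mice and 2 db/m mice on the low side of the gap. Although all db/db-IF mice lay below all db/db mice, the covariate fit gave 0.6 (adjusted p = 0.82). Against the other mice the value was -1.71, and it was lost without db/db-IF mouse 5 (-1.39, adjusted p = 0.056), mouse 7 (-1.18, adjusted p = 0.07) or mouse 11 (-1.37, adjusted p = 0.06). Mir6934/Tbc1d16, with a Rab GTPase activating protein, was split in all groups, with 3 of 10 db/db-IF mice, 6 of 10 db/db mice and 4 of 11 db/m mice on the low side, and was not called in any comparison.

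F630048H11Rik/Ywhaq, with a 14-3-3 protein, had no such step. It ranged from 107.0 to 698.6 FPKM in db/db-IF mice, from 183.4 to 772.7 in db/db mice and from 196.8 to 770.0 in db/m mice, and its log2 fold change for db/db-IF against db/db of -1.03 ± 0.39 (adjusted p = 0.028) was lost without db/db-IF mouse 1, 7 or 11 or db/db mouse 9 (-0.91 to -0.95, adjusted p = 0.051 to 0.056) and in the covariate fit (-1.02, adjusted p = 0.45).

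Genes found on a shared locus and on a locus of their own allowed a look at both rows. There were 267 such pairs from 145 genes, and the shared locus had the higher mean FPKM in 206. A row can stand in several pairs, so the pairs are not independent and their counts are not rates over genes. For db/db-IF against db/db both rows were called in 63 pairs, in the same direction in 33 and in opposite directions in 30. The shared locus alone was called in 28 pairs, the single-name locus alone in 108 and neither in 68. The share of single-name rows called in these pairs was not set against a background.

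The db/db mice differed from db/m mice at fewer shared loci. In db/db mice 27 shared loci (2.58%) were higher, where 2.96% of all loci were, and 28 (2.68%) lower, where 2.79% of all loci were. At an unadjusted p under 0.05, which makes no allowance for the number of loci tested, the counts were 86 and 94. All loci were not counted at that threshold. With the length slope as a covariate 53 were higher and 47 lower, where 6.03% and 4.08% of all loci were, and the 55 loci called without it were all among them. The count of lower loci was 16, 17 and 17 without db/db mouse 5, 2 or 10 and 43 without db/db-IF mouse 7, which entered through the shared estimate of the spread. Of all 17139 loci 409, 369, 374 and 635 were lower in the same fits.

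The largest rise past the threshold was at a host of let-7 miRNAs. Lncppara/Mirlet7b/Mirlet7c-2 (chr15:85703773-85707524), a lncRNA with let-7b and a copy of let-7c inside it, a family known for holding back cell growth, ranged from 6.1 to 13.2 FPKM in db/db-IF mice (median 8.86), from 10.2 to 15.7 FPKM in db/db mice (median 13.2) and from 3.99 to 8.44 FPKM in db/m mice (median 7.25). All 10 db/db mice lay above all db/m mice, and 6 of 10 db/db-IF mice lay below all db/db mice. The log2 fold change was 0.84 ± 0.12 for db/db against db/m (adjusted p = 0.00014, and 0.83 with adjusted p = 0.00013 in the covariate fit) and -0.47 ± 0.13 for db/db-IF against db/db (adjusted p = 0.0031, and -0.55 with adjusted p = 0.17 in the covariate fit). Both comparisons share the db/db mice.

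The other hosts with the seed GAGGUAG were chosen with their values already seen. Mir125a/Mir99b/Mirlet7e/Spaca6 averaged 38.6 ± 8.7 FPKM in db/db-IF mice, 34.3 ± 3.7 in db/db mice and 27.5 ± 3.1 in db/m mice, with a log2 fold change of 0.31 ± 0.09 for db/db against db/m (adjusted p = 0.047) that was lost in 17 of the fits that left out 1 mouse (0.3 without db/db mouse 2, adjusted p = 0.086). Mir99a/Mir99ahg/Mirlet7c-1 averaged 2.67 ± 0.76, 1.53 ± 0.33 and 1.6 ± 0.28 FPKM in the same groups. It was higher in db/db-IF than in db/db mice by 0.52 ± 0.1 on the log2 scale (adjusted p = 9.2e-05, and 0.19 with adjusted p = 0.55 in the covariate fit) and was not called for db/db against db/m (-0.05 ± 0.1, adjusted p = 0.84). Mir9-3/Mir9-3hg, the host of a copy of miR-9, which is known for its role in neural development, averaged 12.4 ± 0.67 FPKM in db/db-IF mice, 12.3 ± 0.68 in db/db mice and 10.4 ± 0.94 in db/m mice. For db/db against db/m the log2 fold change was 0.22 ± 0.04 (adjusted p = 0.0019), and db/db-IF mice did not pass the test against db/db mice (0.01 ± 0.04, adjusted p = 0.83).

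The Ugt1a cluster (chr1:88055411-88220002, 9 names) holds the UDP-glucuronosyltransferases that conjugate bilirubin and drugs. It ranged from 2.61 to 4.62 FPKM in db/db-IF mice (median 3.56), from 2.94 to 4.04 FPKM in db/db mice (median 3.29) and from 1.84 to 2.57 FPKM in db/m mice (median 2.31). The db/db and db/m mice did not overlap. For the cluster the log2 fold change was 0.43 ± 0.06 for db/db against db/m (adjusted p = 0.00013) and 0.07 ± 0.06 for db/db-IF against db/db (adjusted p = 0.35). Ccdc112/Gm32288 on chromosome 18 averaged 10.1 ± 0.69 FPKM in db/db mice and 7.7 ± 1.1 FPKM in db/m mice, again with no overlap, and a log2 fold change of 0.37 ± 0.07 (adjusted p = 0.0012). The remaining rises of the 6 largest were AW549542/Tbx3os1 (0.34 ± 0.07, adjusted p = 0.0051), Mir8115/P2rx7 (0.33 ± 0.09, adjusted p = 0.03) and Gm41414/Rbfox1 (0.31 ± 0.08, adjusted p = 0.02). Rbfox1 is a splicing factor of neurons, and P2rx7 an ATP-gated channel of microglia. Mir8115/P2rx7 averaged 1.2 ± 0.3 FPKM in db/db-IF mice, 2.27 ± 0.68 in db/db mice and 1.57 ± 0.24 in db/m mice, and its call for db/db against db/m was lost in 7 of the fits that left out 1 mouse (0.27 without db/db mouse 8, adjusted p = 0.065). Of the 10 db/db-IF mice 9 lay below all db/db mice, with a log2 fold change of -0.55 ± 0.09 (adjusted p = 2.2e-05, and -0.51 with adjusted p = 0.078 in the covariate fit).

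The falls past the threshold in db/db mice were smaller than the rise at the let-7 host. The locus 1500015L24Rik/Aldh1a1/E030003E18Rik, with an enzyme of retinoic acid synthesis, averaged 70.2 ± 11 FPKM in db/db-IF mice, 83.9 ± 11 in db/db mice and 112.1 ± 25 in db/m mice, with a log2 fold change of -0.39 ± 0.1 for db/db against db/m (adjusted p = 0.019). 9330162012Rik/Gpld1, with a phospholipase that cuts GPI anchors, averaged 51 ± 7.7 FPKM in db/db mice and 66.1 ± 8.4 FPKM in db/m mice (-0.37 ± 0.08, adjusted p = 0.0043). Gm28042/Jmjd7/Pla2g4b, with a cytosolic phospholipase A2, ranged from 36.4 to 60.2 FPKM in db/db-IF mice (median 41.0), from 26.6 to 39.6 FPKM in db/db mice (median 32.6) and from 36.9 to 44.1 FPKM in db/m mice (median 40.9). For db/db against db/m 9 of 10 db/db mice lay below all db/m mice (-0.32 ± 0.07, adjusted p = 0.0057), and for db/db-IF against db/db the log2 fold change was 0.4 ± 0.07 (adjusted p = 4.3e-05, and 0.42 with adjusted p = 0.054 in the covariate fit). H2-Ke6/Slc39a7, with a zinc transporter of the secretory pathway, averaged 89.6 ± 18 FPKM in db/db-IF mice, 60.5 ± 9.6 in db/db mice and 77.9 ± 11 in db/m mice, with log2 fold changes of 0.55 ± 0.11 for db/db-IF against db/db (adjusted p = 0.00013) and -0.36 ± 0.11 for db/db against db/m (adjusted p = 0.039), and in the covariate fit 0.28 (adjusted p = 0.41) and -0.38 (adjusted p = 0.015). Without the covariate the second call was lost in 14 of the fits that left out 1 mouse (-0.33 without db/db mouse 5, adjusted p = 0.074). Kif27/Mir6369, with a kinesin, had -0.31 ± 0.09 (adjusted p = 0.034), which was lost in 10 of these fits (-0.27 without db/db mouse 2, adjusted p = 0.077).

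**Figure D5:**
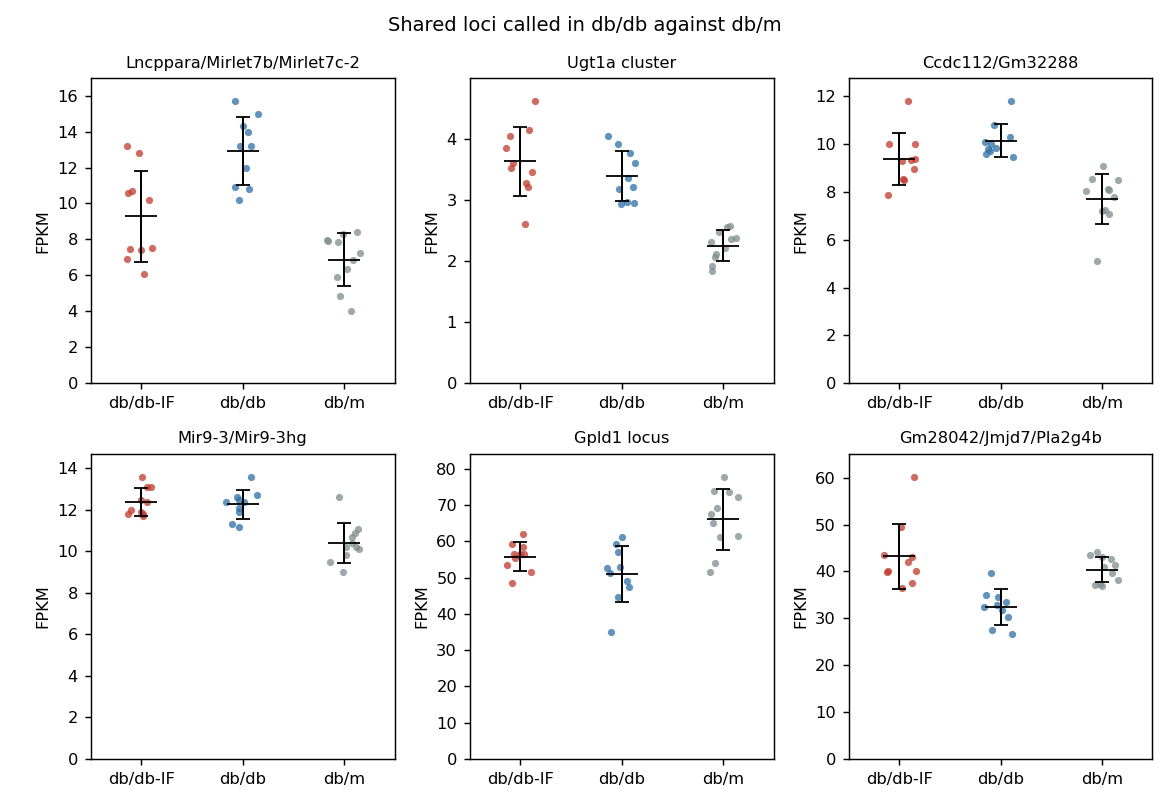
FPKM of 6 shared loci called for db/db against db/m, in each mouse of the db/db-IF, db/db and db/m groups (points), with the mean (long bar) and SD (whiskers). At Lncppara/Mirlet7b/Mirlet7c-2, the Ugt1a cluster and Ccdc112/Gm32288 all db/db mice lie above all db/m mice.

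Apoe/Tomm40, a tandem pair 2 bases apart that holds the main lipid carrier of the brain and the import pore of the outer mitochondrial membrane, was chosen with its values already seen. It averaged 254 ± 37 FPKM in db/db-IF mice, 212.2 ± 21 in db/db mice and 240.5 ± 8.9 in db/m mice. The locus had a log2 fold change of 0.25 ± 0.06 for db/db-IF against db/db (adjusted p = 0.0015, and -0.02 with adjusted p = 0.95 in the covariate fit), and db/db against db/m did not pass without the covariate (-0.19 ± 0.06, adjusted p = 0.073) but passed with it (-0.21, adjusted p = 0.0077). Against the other mice together the value was 0.16 (adjusted p = 0.03), which was lost without db/db-IF mouse 7 (0.1, adjusted p = 0.1) or mouse 8 (0.15, adjusted p = 0.053). A C4a/C4b locus holds near-identical genes of complement factor 4 that reads cannot always tell apart. RefSeq lists C4a as a transcribed pseudogene and C4b as protein-coding. This locus averaged 3.86 ± 1.2 FPKM in db/db-IF mice, 2.39 ± 1.3 in db/db mice and 1.69 ± 1 in db/m mice. Its log2 fold change for db/db-IF against db/db of 0.57 ± 0.23 (adjusted p = 0.04) was lost in 11 of the fits that left out 1 mouse (0.46 without db/db mouse 6, adjusted p = 0.09) and in the covariate fit (0.43, adjusted p = 0.62).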

How the data were processed

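Hippocampal RNA of 31 mice was sequenced, and groups were those of the sample labels. The submitters' processing notes name Trimmomatic 0.38 for trimming, HISAT2 for alignment (build GRCm38.p6) and StringTie 1.3.4d, with which the authors assembled and merged transcripts. The deposited values are FPKM per merged locus, with no read counts given, hence the counting error is unknown and the precision given is the spread between mice. No source used here states strand use, and reads of overlapping, antisense or near-identical genes may be shared.

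Values were analysed as log2(FPKM + 1) with limma 3.58.1 in R 4.3.3, with a prior spread that depends on expression level; tests had both tails, and the threshold was an adjusted p (Benjamini-Hochberg) under 0.05 over the 17139 loci with FPKM above 1 in at least 10 mice. db/db-IF mice were compared with the others pooled into 1 group, after the study's comparison of db/db-IF mice with db/db and db/m mice. In 1 fit of 3 group means they were compared with db/db mice, as db/db mice were with db/m mice. P-values measure the spread between these mice. The fit was tested on simulated data with independent normal noise and no length slope, so that test does not cover the slope seen in these mice. The length slope was fitted on transcript lengths of GENCODE M21. Positions and sequences came from RefSeq tables of GRCm38.p6, and the position given for a locus is the span of its named genes there. Python 3.11.15 with pandas 2.3.3 and numpy 2.4.6 wrote the tables, and matplotlib 3.10.9 the plots.

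The loci described are the 6 largest rises and falls past the threshold in each comparison, the 8 with the highest mean FPKM (1 of them is not reported here), the 5 with the most names, the 3 with the smallest adjusted p in each class of arrangement, at most 8 called loci with a miRNA, and 2 for each list with at least 3 shared loci. Some that the rule takes are given only in the closing section or not at all. Other loci are named as chosen with their values already seen. Members and lists were chosen with earlier results of these data known. The alternatives were another pseudocount (0.1), other FPKM filters (0.1 and 5), equal medians, quantile normalization, array weights, a replicate block, a read-quality covariate, the length slope, a threshold of 0.01, loci with at least 2 names that are not predicted, and leaving out each mouse. Each was run alone, so no mouse was left out with the length slope as a covariate.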

Additional observations from a re-analysis of the deposited data

Results flagged for a closer look

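In 28 of the 190 groups of 10 mice tested at the 95 described loci, 1 mouse stood apart from the others of its group. The cut-off is set to flag about 1 in 20 groups of independent, normally distributed values. These groups hold FPKM of the same mice at every locus, so that rate does not apply here. No explanation was tested.

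db/db-IF mouse 7, the mouse with the lowest length slope, stood apart most often. It was the highest of its group at Ndufs7/n-TNgtt7 (759.2 FPKM, next mouse 618.8), Apoe/Tomm40 (348.1, next 269.6), Hba-a1/Hba-a2/Hbq1b (272.1, next 153.3), Ecsit/Zfp653 (197.4, next 163.2), Hbb-bs/Hbb-bt (151.9, next 86.2), Mir686/Psmb5 (60.8, next 48.5), Gm35037/Ndufa3 (53.0, next 42.7) and Gapdhs/Sbsn (13.7, next 10.9). It was the lowest at Gm42127/Hnrnpd (49.7 FPKM, next 71.2), the Gm21092 cluster (11.1, next 19.6) and Mir7008/Prkci (3.0, next 4.5).

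db/db-IF mouse 11 was the highest of its group at Gm13305/Il11ra2 (101.9 FPKM, next 76.4), Ercc2/Mir343 (50.1, next 39.5), Irf9/Rnf31 (25.8, next 22.1), Acad10/Acad12 (23.7, next 16.1) and Snhg8/Snora24 (14.4, next 12.5). db/db-IF mouse 4 had 380.6 FPKM at Cenpb/Spef1 (next 114.8), where the log2 fold change against the other mice of 0.76 (adjusted p = 0.03) was 0.48 without it (adjusted p = 0.1). db/db-IF mouse 8 was the lowest at Bscl2/Hnrnpul2/Lrrn4cl (61.9 FPKM, next 79.7) and the highest at Mir8115/P2rx7 (1.93, next 1.44).

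Among db/db mice, mouse 10 was the lowest at Mir7033/Pom121 (489.2 FPKM, next 602.0), Qars/Qrich1 (29.4, next 30.7), Zfp101/Zfp81 (15.6, next 20.5) and Acvr1b/Mir6962 (9.93, next 26.4), and the highest at Gm41609/LOC105246307 (73.1, next 42.5). Mouse 2 was the highest at 1700086P04Rik/Hpca (11132.1 FPKM, next 7101.2), mouse 5 the highest at E130307A14Rik/Traf3ip2 (5.27, next 3.24), mouse 4 the lowest at Bscl2/Hnrnpul2/Lrrn4cl (56.6, next 96.2) and mouse 9 the lowest at Gapdhs/Sbsn (7.54, next 8.75).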

How the results depend on the processing

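The counts of shared loci in the 2 comparisons of db/db-IF mice moved most with the length slope as a covariate. Against the other mice it gave for db/db-IF 18 higher and 0 lower loci in place of 232 and 284, for db/db-IF against db/db 28 and 2 in place of 213 and 238, and for db/db against db/m 53 and 47 in place of 27 and 28. At an unadjusted p under 0.05 without the covariate the lower loci of the first comparison were 316, and all loci were not counted at that threshold. Quantile normalization gave 302 higher and 228 lower loci against the other mice and 277 and 195 against db/db mice. For db/db against db/m array weights gave 58 and 56, the replicate block 11 and 6, and the threshold of 0.01 gave 7 and 6. Among the 726 loci with at least 2 names that are not predicted, 185 were lower in db/db-IF mice than in the other mice and 155 lower than in db/db mice. Same-numbered mice had a correlation of deviations from the group means over 0.1 in 2 of 29 pairs (-0.27 to 0.16). Mice of different numbers were not compared in this way, so these values cannot decide whether the replicate numbers pair the mice. When 1 mouse was left out, the counts ranged from 220 to 234 higher and 261 to 293 lower for db/db-IF mice against all others, from 197 to 217 and 221 to 256 for db/db-IF against db/db, and from 19 to 39 and 16 to 43 for db/db against db/m. Of the 172 results past the threshold at the described loci, 24 were lost in at least 1 of these fits, 21 under the replicate block and 103 with the length slope, which also turned the direction of 23.

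Against the other mice the direction of the db/db-IF value turned with the length slope at Apoe/Tomm40 (-0.09), Chm/Mir361 (1.01), Gm42127/Hnrnpd (0.03), Hba-a1/Hba-a2/Hbq1b (-0.03), Cenpb/Spef1 (-0.01), Mfsd14a/Slc35a3 (0.01), Mir686/Psmb5 (-0.04), Mir125a/Mir99b/Mirlet7e/Spaca6 (-0.04), Qars/Qrich1 (0.02, also 0.02 with quantile normalization), Acvr1b/Mir6962 (0.11), the Gm21092 cluster (0.36), the Ube3a cluster (0.02), Gm16386/Gm5224 (0.47) and Kdm6b/Tmem88 (0.14). For db/db-IF against db/db it turned at Apoe/Tomm40 (-0.02), Chm/Mir361 (0.6), Hba-a1/Hba-a2/Hbq1b (-0.21), Mir686/Psmb5 (-0.08), Qars/Qrich1 (0.01, also 0.01 with quantile normalization), Acvr1b/Mir6962 (0.1), Cacnb2/Gm32741 (-0.09), Gm16386/Gm5224 (0.39) and Kdm6b/Tmem88 (0.18). The cause was not tested. FPKM without counts limits what low loci can show, because the error of 1 value is unknown.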
